A study of Mus musculus with 8 samples.

Results

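The genes described here are 35 components of the machinery that copies DNA and supplies it with nucleotides. They were chosen by function: the origin licensing factors Cdc6 and Cdt1 and the Mcm2 to Mcm7 helicase, the helicase activation factors Mcm10, Gins1 and Gins2, the primase and polymerase subunits, the sliding clamp and its loader, the single-strand binding proteins, the Okazaki fragment enzymes Fen1 and Lig1, the nucleotide supply enzymes Rrm1, Rrm2, Tyms, Tk1 and Dut, and the methylation cofactor Uhrf1. The choice was made with earlier results of these data known. Shares of these genes set beside all genes are therefore descriptions and not independent evidence. All 35 were found in the table of 20258 rows that carry a gene symbol, each in 1 row, and all 35 were among the 13615 genes that varied and were tested.

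The cells were macrophages from the bone marrow of C57BL/6 mice, harvested after 24 h in 1 of 3 states: unstimulated (2 libraries), with IL4 (3 libraries) or with LPS plus IFNg (3 libraries). IL4 is a type 2 cytokine, LPS a bacterial membrane component and IFNg the type 2 interferon, and the last pair together give the classically activated state. No genotype other than the strain, and no dose, age or sex, was given in the sources used here, and all 3 groups share the same strain and cell type. RNA was read by 3' end sequencing, and each value is a quantile-normalised log2 level, so a difference of 1 stands for 2-fold.

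A cell that is about to divide first loads the Mcm2 to Mcm7 ring onto its origins with the help of Cdc6 and Cdt1. The ring is then activated, primase and polymerase alpha lay down primers, and polymerases delta and epsilon extend them on the Pcna clamp while ribonucleotide reductase (Rrm1 with Rrm2) and thymidylate synthase (Tyms) supply deoxynucleotides. Most of these genes are transcribed in a wave before and during S phase under the control of E2F factors, and bone marrow macrophages grown with their growth factor M-CSF are known to divide until an activating stimulus such as LPS or IFNg stops them.

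With LPS plus IFNg, 7 of the 35 genes fell against unstimulated cells and none rose: Mcm2, Mcm5, Prim1, Lig1, Rrm2, Tyms and Uhrf1. Over all tested genes, 4.25% were called lower and 3.72% higher in this comparison. Against IL4, 9 of 35 fell and none rose, namely Mcm2, Mcm3, Mcm4, Mcm5, Rpa3, Lig1, Rrm2, Tyms and Uhrf1, which is 25.7% of them beside 6.96% of all tested genes called lower and 5.91% called higher. Calls were made with limma at a Benjamini-Hochberg adjusted p of at most 0.05 over all tested genes, two-sided. The median difference of the 35 genes was -1.77 against unstimulated cells and -2.38 against IL4, where the median over all tested genes was -0.04 and 0. Without the 4 members that were listed at 0 in every LPS plus IFNg library (Cdc6, Mcm5, Prim1 and Tyms), these medians were -1.51 and -2.06. Both comparisons use the same LPS plus IFNg libraries, so they are not independent of each other.

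The libraries themselves show how far apart the groups were. In 17 of the 35 genes (48.6%) every LPS plus IFNg library lay below every other library, which held for 9.56% of all tested genes. Against unstimulated libraries alone, 21 of 35 members were lower without overlap, beside 20.7% of all genes, and against IL4 libraries 22 were, beside 14.8%. No member was higher without overlap in either comparison. Genes with higher values pass more often: among the 7283 genes whose mean was 5 or more, 6.19% were called lower and 5.12% higher against unstimulated cells, 10.4% lower and 8.13% higher against IL4, and 27.4% and 21.3% were lower without overlap. In bulk RNA, a smaller share of replicating cells and less replication RNA in each cell cannot be told apart.

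**Figure D1:**
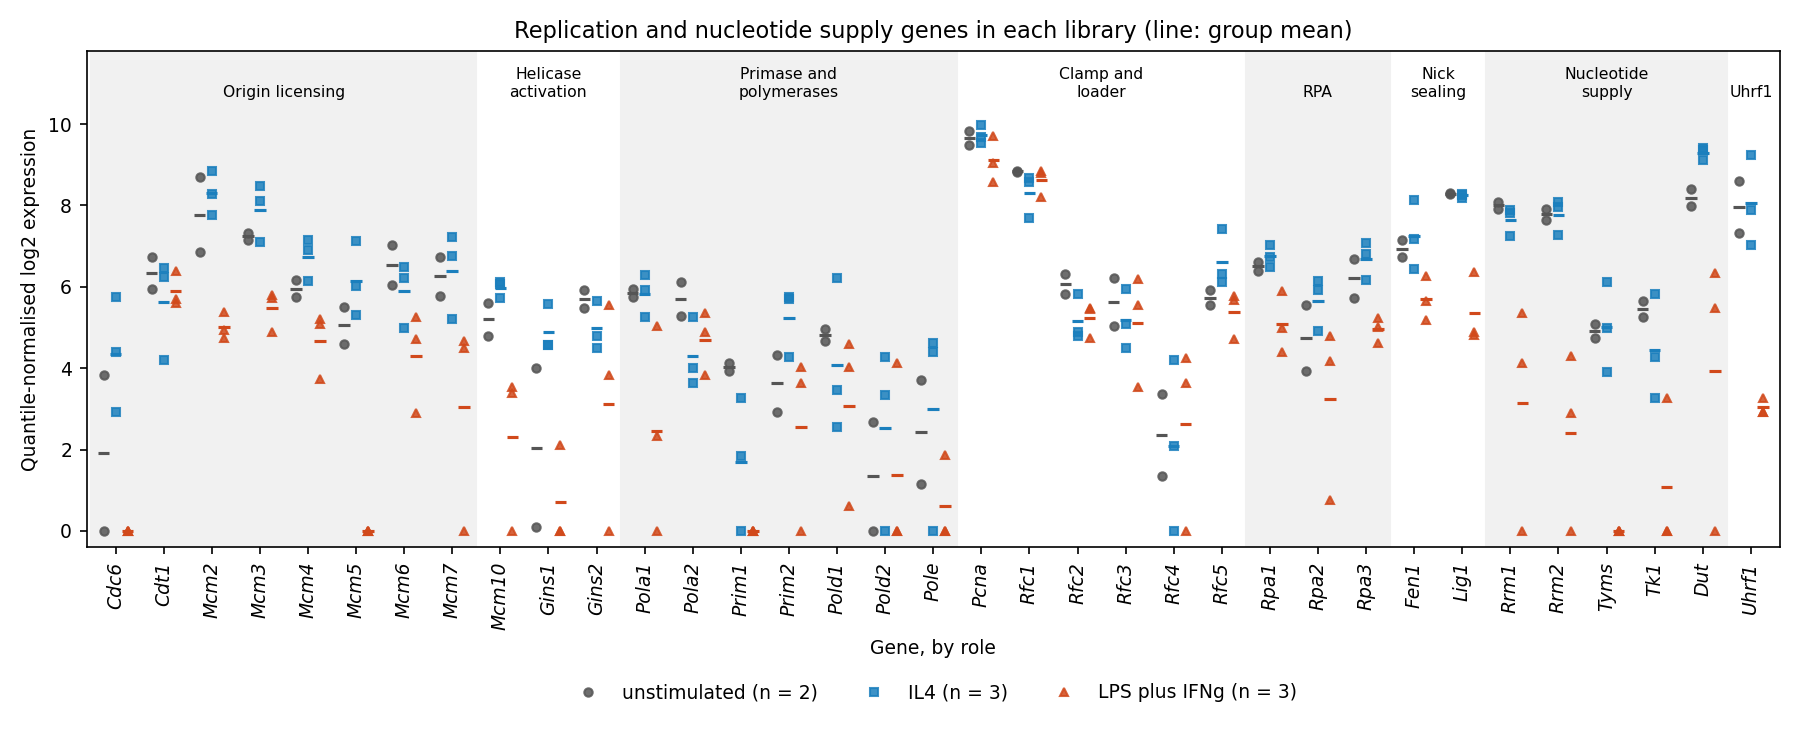
Quantile-normalised log2 expression (vertical axis) of each of the 35 genes (horizontal axis, by role) in each of the 8 libraries; points are libraries, shaped and coloured by group, and short lines are group means. For 17 genes every LPS plus IFNg point lies below all others, and for Cdc6, Mcm5, Prim1 and Tyms all 3 lie at 0.

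With IL4, none of the 35 genes passed the same limma test. In this comparison 0.514% of all tested genes were called higher and 0.793% lower. At an unadjusted p under 0.05 only Prim1 passed, in the lower direction. Over all 13615 tested genes, 895 were lower and 753 higher at that p. Of the 35 differences 20 were positive and 15 negative, with a median of 0.10 and a range of -2.32 to 2.85. Not passing is not the same as no change. In simulated data this comparison called 5.97% of genes with a log2 change of 1 and 46.3% of those with a change of 2. The IL4 libraries lay above the unstimulated ones without overlap in 4 genes (Mcm10, Gins1, Rfc5 and Dut), which is 11.4% beside 11.7% of all tested genes, and below them in 5 (Pola2, Prim1, Rfc1, Rfc2 and Rrm1), which is 14.3% beside 14.7%. These shares are near the background, so the separation of single genes after IL4 is no result about the group.

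Macrophage markers were read as a description, which does not by itself establish the identity of the cells. All 12 tested macrophage markers, such as the M-CSF receptor gene Csf1r, were above 0 in all 8 libraries, although their levels moved: 6 were called lower with IL4, 4 lower and 2 higher with LPS plus IFNg against unstimulated cells, and 1 lower and 4 higher against IL4. Depth is unknown, because the values are normalised and no counts were used here; between 9967 and 11837 genes were above 0 in a library. Libraries of the same group correlated with Pearson's r of 0.838 to 0.928 over the same 7283 genes, which is a description across genes that are not independent. Whether the libraries of a group stem from different animals or cultures is not stated in the labels, and the p-values therefore cover the spread among these libraries alone, which may be technical.

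Markers of other cell types moved with the same groups, and their part in the members' differences was not tested. Of 13 tested neutrophil precursor markers, 4 fell against unstimulated cells and 5 against IL4. Their summed log2 level was 11.31 to 11.47 in unstimulated libraries, 10.44 to 10.94 with IL4 and 8.51 to 8.83 with LPS plus IFNg, and Mpo and Prtn3, which mark early stages, were at 0 throughout the last group. Of 10 dendritic cell markers, 2 fell and 1 rose against unstimulated cells, and their summed level was 8.57 to 8.85, 10.15 to 10.61 and 6.81 to 7.66 in the same order. Of 6 tested erythroid markers, Tfrc, the transferrin receptor gene that many dividing cells and macrophages also express, fell. The summed erythroid level was 9.90 to 10.35, 11.19 to 11.35 and 6.95 to 8.08. In IL4 replicate 2 and LPS plus IFNg replicate 3, 5 of the 6 erythroid markers were at 0. The sum in those libraries is the level of a single gene and does not describe the erythroid markers as a set. Of 7 tested lymphocyte markers 1 fell, and of 10 fibroblast and 7 mast cell markers none passed against unstimulated cells in limma, with 2 and 0 at an unadjusted p under 0.05. Over all 13615 tested genes, 1484 were lower and 1153 higher at that p in this comparison.

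The start regions of the genes were read from RefSeq annotation of the GRCm38.p6 build, from 250 bases before to 50 after each annotated start. The deposited table was made on the older mm9 build and holds no coordinates, so genes were matched by symbol only. Windows were found for 29 of the 35 genes (35 windows, since some genes have several starts); Mcm4, Gins1, Gins2, Prim2, Pole and Rfc2 had none. An E2F word (TTTCCCGC, TTTCGCGC, TTTGGCGC or TTTGCCGC, either strand, overlaps allowed) stood in 11 of these windows, in 11 genes. That is 31.4% of the members' windows, beside 3.63% of the windows of tested genes and 2.26% of all 32851 windows of this length. The letters CCAAT stood in 57.1% of the members' windows and in 37.9% of those of tested genes, and the TTTGAA or TTCGAA letters of the mitotic CHR element in 14.3% of both. The E2F share was also well above that background in 3 related lists described further on, at 30.8% for other replication genes, 26.3% for control of S phase entry and 23.5% for replication stress and repair. It was 7.14% for de novo nucleotide synthesis, 4.35% for mitotic genes and 0% for salvage, and the mitotic windows held CCAAT in 78.3% and the CHR letters in 73.9%. A match is a description of the letters, not a binding site. In 7 genes a match lay before the start, and those stretches are shown so that the words can be compared; capitals mark the matched letters, and each is written 5′ to 3′ on the strand of its gene.
Mcm5, chr8:75109336-75109387, plus strand: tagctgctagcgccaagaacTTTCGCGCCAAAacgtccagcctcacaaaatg
Mcm6, chr1:128359725-128359835, minus strand: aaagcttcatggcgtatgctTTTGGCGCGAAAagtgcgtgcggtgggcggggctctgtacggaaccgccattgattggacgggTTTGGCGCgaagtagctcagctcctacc
Mcm7, chr5:138172021-138172068, minus strand: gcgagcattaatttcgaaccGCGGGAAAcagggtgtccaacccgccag
Cdc6, chr11:98907993-98908040, plus strand: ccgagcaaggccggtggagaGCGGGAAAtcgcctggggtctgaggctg
Pola1, chrX:93632266-93632313, minus strand: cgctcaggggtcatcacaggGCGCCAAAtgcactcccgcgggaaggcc
Rfc3, chr5:151651209-151651238, minus strand: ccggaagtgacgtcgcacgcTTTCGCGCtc
Uhrf1, chr17:56304108-56304155, plus strand: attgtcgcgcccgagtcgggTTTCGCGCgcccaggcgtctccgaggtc

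Called and uncalled members were found both with and without the word. Of the 11 genes with an E2F word, Lig1, Mcm3, Mcm5 and Uhrf1 passed in at least 1 comparison with LPS plus IFNg and 7 did not. Of the 18 genes whose windows lacked it, Mcm2, Prim1, Rpa3, Rrm2 and Tyms passed and 13 did not. Rfc3, with matches on either side of its start, had levels that overlapped between all groups. Lig1, Mcm7 and Uhrf1 have more than 1 window each, and the word stood in only 1 of them. Which start these cells use was not tested.

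**Figure D2:**
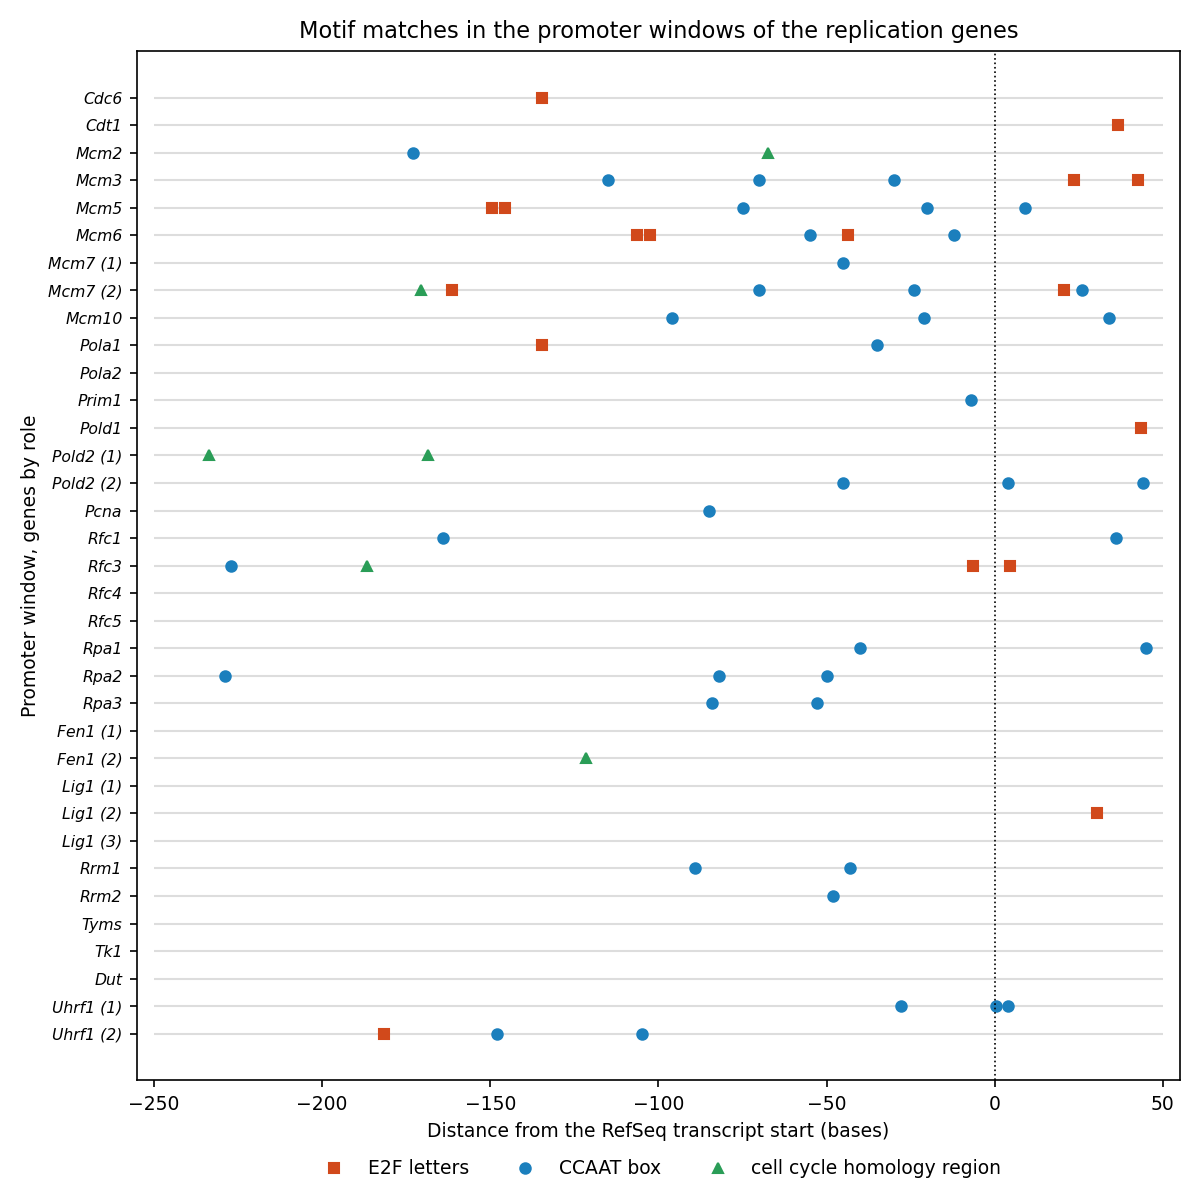
Places of the E2F letters (squares), CCAAT (circles) and the CHR letters (triangles, the cell cycle homology region) in the 35 windows of the 29 genes (vertical axis, by role), by distance from the RefSeq transcript start in bases (horizontal axis). E2F letters stand in 11 windows, before the start in 7 genes, and Pola2, Rfc4, Rfc5, Tyms, Tk1 and Dut have none of the 3 motifs.

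Among the 8 licensing genes, Mcm2 and Mcm5 fell against unstimulated cells, and Mcm2, Mcm3, Mcm4 and Mcm5 fell against IL4. The median difference of the group was -2.08 and -2.85. Mcm2, a subunit of the replicative helicase ring, was at 6.85 and 8.69 in the unstimulated libraries, at 8.28, 8.86 and 7.77 with IL4, and at 5.38, 4.74 and 4.94 with LPS plus IFNg. All 3 LPS plus IFNg values lay below all 5 others. The means were 7.77 ± 1.30 (SD, n = 2), 8.30 ± 0.54 (SD, n = 3) and 5.02 ± 0.32 (SD, n = 3). Mcm2 was 6.74-fold lower than in unstimulated cells (log2 difference -2.75, SE 0.58, limma adjusted p 0.0307) and 9.75-fold lower than with IL4 (-3.29, SE 0.52, adjusted p 0.00676). The unstimulated libraries lay far apart, and the difference from them was -3.67 without replicate 1 and -1.83 without replicate 2.

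Mcm5, another ring subunit, was at 5.50 and 4.60 in unstimulated cells and at 5.30, 6.01 and 7.13 with IL4. The 3 LPS plus IFNg libraries list it at 0, so no fold is given. Limma called it lower against unstimulated cells (adjusted p 0.0134) and against IL4 (adjusted p 0.00269). Those 3 listed zeros have an SD of 0, which narrows the spread that limma works with, so these p-values are not firm. The same limit holds for Cdc6, Prim1 and Tyms, which were at 0 in the same libraries. What an exact 0 means is not stated in the sources used here, so it is not read as a measured absence, although limma took it as a value.

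Mcm3 was at 7.33 and 7.15 in unstimulated cells, at 8.10, 7.09 and 8.47 with IL4 and at 4.89, 5.73 and 5.79 with LPS plus IFNg, again with no overlap between the last group and the others. It was 5.34-fold lower than with IL4 (-2.42, SE 0.43, adjusted p 0.0109), while the difference from unstimulated cells was -1.77 (SE 0.48, adjusted p 0.0749). Mcm4 was at 6.17 and 5.74, at 7.16, 6.89 and 6.15, and at 5.08, 5.20 and 3.74 in the same order of groups. The LPS plus IFNg libraries were the 3 lowest of the 8. Mcm4 was 4.17-fold lower than with IL4 (-2.06, SE 0.53, adjusted p 0.044), and -1.29 (SE 0.59, adjusted p 0.296) was its difference from unstimulated cells.

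The other 4 licensing genes passed no test. Mcm6 and Mcm7, the remaining ring subunits, had differences of -2.24 and -3.20 from unstimulated cells (adjusted p 0.192 and 0.292); Mcm7 was listed at 0 in 1 LPS plus IFNg library and at 4.49 and 4.67 in the other two. Cdc6, which loads the ring, was at 0 in every LPS plus IFNg library but also in 1 of the 2 unstimulated ones, and its IL4 values were 2.91, 4.39 and 5.75 (limma adjusted p 0.0519 against IL4). Cdt1, its partner in loading, was at 5.94 and 6.74 unstimulated and at 5.59, 6.39 and 5.71 with LPS plus IFNg, so its groups overlapped. Its differences were -0.44 from unstimulated cells and 0.27 from IL4 (adjusted p 0.819 and 0.864).

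None of the 3 helicase activation genes passed. Gins2, a subunit of the GINS complex that joins the helicase and the gene of this role with the highest mean, was at 5.48 and 5.91 in unstimulated cells, at 4.79, 5.65 and 4.50 with IL4, and at 3.84, 0 and 5.56 with LPS plus IFNg. Its groups overlapped, and its differences of -2.57 from unstimulated cells (adjusted p 0.418) and -1.85 from IL4 (adjusted p 0.482) did not pass. Mcm10, which helps to open the loaded ring and was singled out after its values were seen, was at 4.79 and 5.61 in unstimulated cells, at 6.11, 6.06 and 5.72 with IL4, and at 0, 3.54 and 3.38 with LPS plus IFNg. The 3 groups did not overlap. The differences of LPS plus IFNg were -2.89 from unstimulated cells (SE 1.14, adjusted p 0.219) and -3.65 from IL4 (SE 1.02, adjusted p 0.0604). Gins1, another GINS subunit, was listed at 0 in 2 of the 3 LPS plus IFNg libraries and differed by -1.35 from unstimulated cells (adjusted p 0.645).

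Of the 7 primase and polymerase genes, Prim1 fell against unstimulated cells and none fell against IL4. Prim1, the catalytic primase subunit, was at 4.12 and 3.94 in unstimulated cells, at 1.84, 0 and 3.28 with IL4, and at 0 in every LPS plus IFNg library (limma adjusted p 0.0467 against unstimulated cells and 0.271 against IL4). Both unstimulated values lay above all 6 others. Its difference with IL4 was -2.32 (SE 0.95, adjusted p 0.393).

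Pola2, the accessory subunit of polymerase alpha, was at 5.29 and 6.12 in unstimulated cells, at 4.02, 5.26 and 3.63 with IL4, and at 3.84, 5.34 and 4.90 with LPS plus IFNg. The stimulated groups overlapped with each other, and the highest LPS plus IFNg value lay between the unstimulated ones. Pola2 differed by -1.40 with IL4 (SE 0.78, adjusted p 0.528) and by -1.01 with LPS plus IFNg (adjusted p 0.568). Pola1, the catalytic subunit of the same enzyme, differed by -3.39 from unstimulated cells (adjusted p 0.223), with LPS plus IFNg values of 5.05, 0 and 2.34 that spread widely. Prim2, Pold1, Pold2 and Pole, which complete primase and polymerases delta and epsilon, had differences between -1.81 and 0.03 against unstimulated cells, and each had an adjusted p above 0.6.

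The 6 genes of the clamp and its loader had a median difference of -0.44 from unstimulated cells, with a range of -0.85 to 0.28, and a median of -0.01 from IL4; none passed in either limma comparison, and at an unadjusted p under 0.05 none passed against unstimulated cells and 1 against IL4. Over all 13615 tested genes, 1484 were lower and 1153 higher at that unadjusted p against unstimulated cells, and 1893 and 1585 against IL4. Whether this role differs from the others was not tested. Pcna, the ring that holds the polymerases on DNA, was at 9.48 and 9.83 in unstimulated cells, at 9.98, 9.52 and 9.69 with IL4, and at 8.57, 9.03 and 9.72 with LPS plus IFNg. One LPS plus IFNg library lay within the range of the other groups and the other two below it. The differences were -0.55 (SE 0.34, adjusted p 0.445) and -0.63 (SE 0.30, adjusted p 0.255). Pcna has 2 named pseudogenes and Tyms 1, and no other member has any. How reads that match several genes were treated is not stated. Rfc1, the large subunit of the clamp loader, was at 8.84 and 8.83 unstimulated and at 8.84, 8.80 and 8.22 with LPS plus IFNg, a difference of -0.22 (SE 0.34, adjusted p 0.805). The 4 smaller loader subunits Rfc2, Rfc3, Rfc4 and Rfc5 had differences from unstimulated cells between -0.85 and 0.28.

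Of the 3 subunits of the single-strand binding protein RPA, Rpa3 fell against IL4. Rpa3, the smallest, was at 6.69 and 5.72 in unstimulated cells, at 7.07, 6.16 and 6.81 with IL4, and at 4.62, 5.23 and 5.01 with LPS plus IFNg, below all 5 others. It was 3.31-fold lower than with IL4 (-1.73, SE 0.43, adjusted p 0.041), and its difference from unstimulated cells was -1.25 (SE 0.48, adjusted p 0.208). Rpa1, the large DNA-binding subunit, was at 6.39 and 6.62, at 6.74, 7.02 and 6.48, and at 4.99, 4.40 and 5.89. The LPS plus IFNg libraries were again the 3 lowest, but the differences of -1.41 (adjusted p 0.162) and -1.65 (adjusted p 0.0522) did not pass. Rpa2, the middle subunit, differed by -1.51 from unstimulated cells (adjusted p 0.607).

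Lig1, the DNA ligase that seals Okazaki fragments, fell in both comparisons, and its levels in the other 5 libraries were close together. It was at 8.27 and 8.31 in unstimulated cells, at 8.18, 8.29 and 8.27 with IL4, and at 4.81, 4.90 and 6.36 with LPS plus IFNg. Lig1 was 7.63-fold lower than in unstimulated cells (-2.93, SE 0.47, adjusted p 0.0104) and 7.39-fold lower than with IL4 (-2.89, SE 0.42, adjusted p 0.00475), and its difference between IL4 and unstimulated cells was -0.05. Fen1, the nuclease that trims the same fragments, differed by -1.23 and -1.55 with LPS plus IFNg (adjusted p 0.284 and 0.0916).

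The 5 nucleotide supply genes had the lowest median of the roles with more than 1 gene, -4.85 against unstimulated cells, with a range of -5.38 to -4.24, and -5.00 against IL4. In all 5 the LPS plus IFNg libraries lay below all others, and Rrm2 and Tyms passed in both comparisons. Rrm2, the S phase subunit of ribonucleotide reductase, was at 7.65 and 7.92 in unstimulated cells, at 8.08, 7.96 and 7.26 with IL4, and at 2.91, 4.30 and 0 with LPS plus IFNg. It was 41.7-fold lower than in unstimulated cells (-5.38, SE 1.13, adjusted p 0.0305) and 41.3-fold lower than with IL4 (-5.37, SE 1.01, adjusted p 0.0136). The size of these folds is loose. Against unstimulated cells the difference was -6.33 without LPS plus IFNg replicate 2 and -4.18 without replicate 3, the library at 0, and against IL4 it was -6.31 and -4.17. Low values in this table are also shared by many genes: the Rrm2 value of 2.91 in LPS plus IFNg replicate 1 was shared by 140 genes, Mcm6 among them.

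Tyms, which makes thymidylate, was at 4.73 and 5.08 in unstimulated cells, at 3.90, 4.99 and 6.12 with IL4, and at 0 in every LPS plus IFNg library, with limma adjusted p-values of 0.0187 and 0.00756. Dut, which removes dUTP and makes the precursor of thymidylate, was at 7.98 and 8.40, at 9.41, 9.36 and 9.11, and at 0, 5.48 and 6.35 in the same order. The 3 groups did not overlap, with IL4 highest. The spread of the last group was wide (3.94 ± 3.44, SD, n = 3), and neither -4.24 (SE 1.66, adjusted p 0.214) nor -5.35 (SE 1.49, adjusted p 0.0588) passed. Rrm1, the large reductase subunit, was at 7.91 and 8.10 unstimulated and at 5.35, 4.12 and 0 with LPS plus IFNg, with an adjusted p of 0.0574 against IL4. Tk1, the salvage kinase for thymidine, was listed at 0 in 2 of the 3 LPS plus IFNg libraries (adjusted p 0.102 and 0.118).

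Uhrf1, which guides maintenance DNA methylation to newly copied strands, was at 7.32 and 8.61 in unstimulated cells, at 7.88, 9.25 and 7.02 with IL4, and at 3.27, 2.92 and 2.93 with LPS plus IFNg. The LPS plus IFNg values lay far below the others, in the range of low values that many genes share (114, 112 and 120 genes had the same value in these libraries), so neither their closeness nor the exact fold is firm. Uhrf1 was 30.5-fold lower than in unstimulated cells (-4.93, SE 0.69, adjusted p 0.0068) and 32.3-fold lower than with IL4 (-5.01, SE 0.62, adjusted p 0.00257). The difference was -5.57 without unstimulated replicate 1 and -4.29 without replicate 2, and -4.41 from IL4 without IL4 replicate 2. Dnmt1, the methyltransferase that Uhrf1 recruits, is not a member and differed by -0.55 and -0.97 (adjusted p 0.466 and 0.1).

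**Figure D3:**
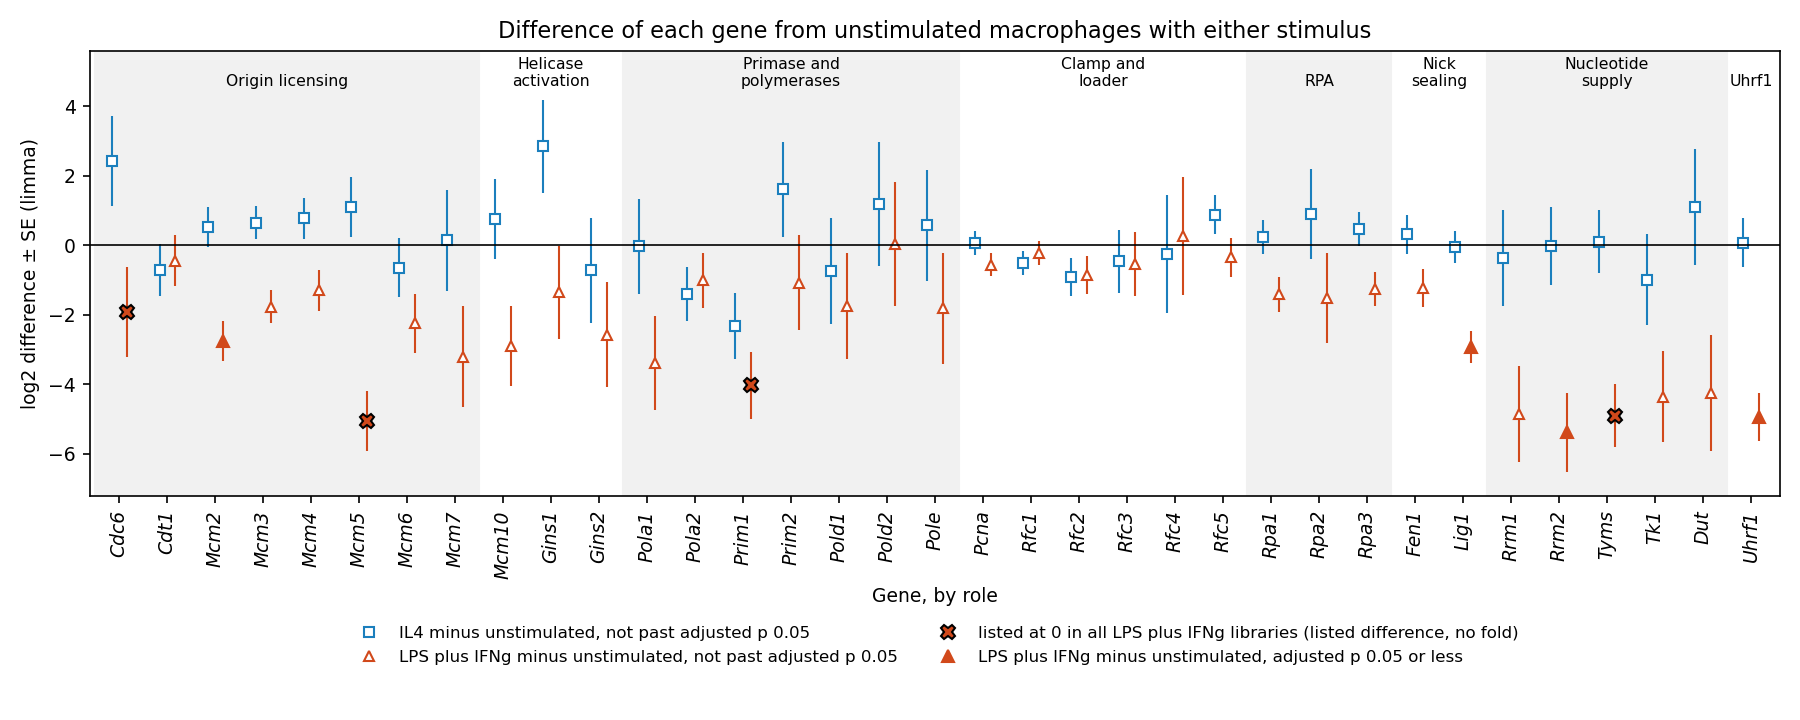
Log2 difference from unstimulated cells (vertical axis, with bars of 1 SE from limma) for each of the 35 genes (horizontal axis, by role), with IL4 (squares) and with LPS plus IFNg (triangles); filled triangles passed an adjusted p of 0.05 and crosses mark genes at 0 throughout the LPS plus IFNg group. With LPS plus IFNg the nucleotide supply genes lie between -5.38 and -4.24 and the clamp and loader genes between -0.85 and 0.28, and no IL4 difference passed.

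Of the 35 genes, 6 were lower in both comparisons with LPS plus IFNg (Mcm2, Mcm5, Lig1, Rrm2, Tyms and Uhrf1), Prim1 only against unstimulated cells, Mcm3, Mcm4 and Rpa3 only against IL4, and 25 in neither. Whether the 2 comparisons differ in these genes was not tested beyond the IL4 comparison above, in which none passed. With only 2 unstimulated libraries, the count against unstimulated cells depended on single libraries. It was 2 without unstimulated replicate 1, 1 without unstimulated replicate 2 and 4 without IL4 replicate 1, and 5 to 8 without each of the remaining libraries. Without unstimulated replicate 1, Mcm5, Prim1, Lig1, Rrm2 and Tyms missed the threshold (limma adjusted p 0.057, 0.17, 0.0751, 0.151 and 0.0564). Without unstimulated replicate 2, Mcm2, Prim1, Lig1, Rrm2, Tyms and Uhrf1 missed it (0.148, 0.188, 0.0995, 0.214, 0.0721 and 0.0749). Mcm2 and Prim1 also missed it without IL4 replicate 1 or any LPS plus IFNg replicate (adjusted p from 0.0554 to 0.12), Rrm2 without IL4 replicate 1 or LPS plus IFNg replicate 1 (0.055 and 0.0611), and Tyms without LPS plus IFNg replicate 2 or 3 (0.0529 and 0.0501). Against IL4 the count was 7 to 11: Mcm2, Mcm3, Mcm5, Lig1, Tyms and Uhrf1 passed whichever library was left out, Rrm2 missed without unstimulated replicate 2 (adjusted p 0.0572), Mcm4 missed whichever library was left out (adjusted p up to 0.131), and Rpa3 missed without IL4 replicate 1 or 3 or any LPS plus IFNg replicate (up to 0.123).

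The direction depends on the scale in some members. Quantile normalisation brings the libraries close to the same distribution, with a median over tested genes of 5.51 in each. Their low ends still differed, with 11.6% (unstimulated replicate 1) to 26.2% (IL4 replicate 2) of tested genes at 0. With 16 housekeeping genes set equal instead, the median of all genes shifted by 0.49 against unstimulated cells and 0.47 against IL4, and 6 and 8 members were lower and none higher. With 84 ribosomal protein genes set equal the shift was 1.45 and 1.46, and the split became 5 lower and 2 higher (Pcna and Rfc1) against unstimulated cells and 7 lower and 4 higher (Cdt1, Pcna, Rfc1 and Rfc2) against IL4. Under that scaling the members' median was -0.32 and -0.92. Each scaling moves all genes of a library by the same amount, so the members' place relative to the median of all genes cannot change. The ribosomal protein genes were themselves called lower on the deposited scale, 58 of 84 against unstimulated cells. Members with a negative difference numbered 20 of 35 against unstimulated cells and 25 against IL4 with the ribosomal protein genes set equal, and 33 and 30 on the deposited scale. The median of the RPA subunits against unstimulated cells then turned from -1.41 to 0.04. The clamp and loader median turned to 0.04 and 0.46 with the housekeeping genes and to 1.01 and 1.45 with the ribosomal protein genes.

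Ranks within each library need no fold change. The median member lay above 54.8% and 53.5% of the tested genes in the unstimulated libraries, above 56.8%, 57.2% and 57.1% with IL4, and above 39.4%, 36.6% and 36.2% with LPS plus IFNg. Every LPS plus IFNg library ranked its median member lower than every other library did. The members' median value was 5.94 and 5.83 unstimulated, 6.11, 6.14 and 6.12 with IL4, and 4.49, 4.17 and 4.12 with LPS plus IFNg. Members listed at 0 numbered 10, 11 and 8 in the LPS plus IFNg libraries, and 0 to 2 in the others. Over all tested genes the share at 0 was 21.8%, 21.8% and 21.9% with LPS plus IFNg, 23.8%, 26.2% and 23.5% with IL4 and 11.6% and 19.0% unstimulated. The LPS plus IFNg shares thus lay below those with IL4 and above those of unstimulated cells. Their part in the members listed at 0 was not tested.

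**Figure D4:**
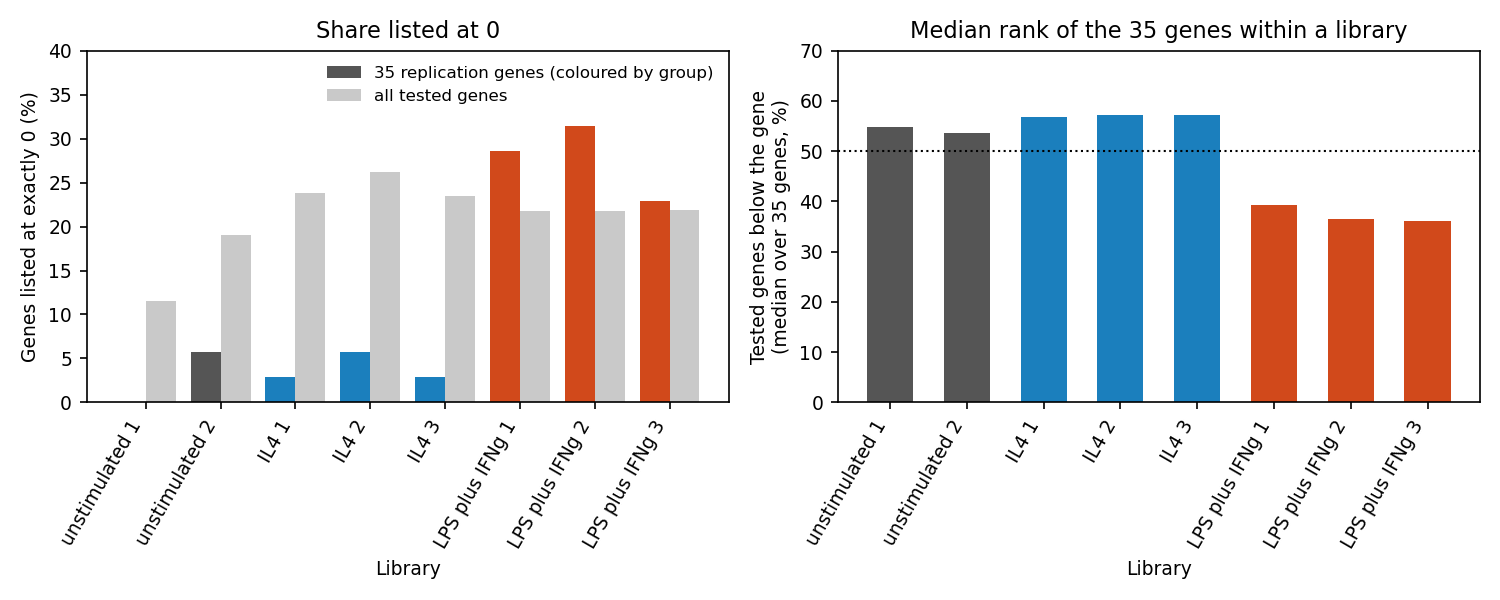
Left, percent of genes listed at exactly 0 in each of the 8 libraries (horizontal axis), for the 35 genes (coloured by group) and for all tested genes (light grey); right, percent of tested genes below a member, as the median over the 35 genes, with a dotted line at 50. The LPS plus IFNg libraries have the most members at 0, 22.9% to 31.4%, and the lowest ranks, 36.2% to 39.4%.

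Other lists of genes around replication were counted in the same way. Of 37 tested genes for the origin recognition complex, other replisome subunits and chromatin assembly, 3 fell and 1 rose against unstimulated cells (median -0.67), and 7 fell and none rose against IL4 (median -0.81). Chaf1a, the large subunit of the histone chaperone that follows the fork, fell from 7.80 in unstimulated cells and 7.83 with IL4 to 5.57 with LPS plus IFNg (adjusted p 0.0312 and 0.0132). Tipin, of the fork protection complex, fell from 7.13 and 7.01 to 5.06 (adjusted p 0.0231 and 0.0127). Asf1a, a histone chaperone that also acts outside replication, rose by 2.31 against unstimulated cells (adjusted p 0.0491). Pole2, the second subunit of polymerase epsilon, was at 7.61, 7.78 and 4.09 and passed against IL4 only (adjusted p 0.0211, and 0.0535 against unstimulated cells). Cdc45, the helicase partner of GINS, was at 5.37, 5.33 and 1.38 and passed in neither (adjusted p 0.102 and 0.054). Orc1, the large subunit of the origin recognition complex, was listed at 0 in every IL4 and LPS plus IFNg library and was low without a stimulus, with a mean of 1.43.

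Of 25 genes of de novo purine, pyrimidine and folate synthesis, 3 fell and 1 rose against unstimulated cells, and 8 fell and none rose against IL4. Prps1, which makes the sugar phosphate that nucleotides start from, was at 5.42 unstimulated, 7.04 with IL4 and 3.17 with LPS plus IFNg, and Ppat, the first enzyme of the purine pathway, at 5.79, 7.09 and 4.42. Both fell against IL4 (adjusted p 0.0246 and 0.0165) and neither passed against unstimulated cells (adjusted p 0.251 and 0.264). Nme1, a nucleoside diphosphate kinase, fell by 1.66 against unstimulated cells (adjusted p 0.0305) and by 2.60 against IL4 (adjusted p 0.00231). Cad, which starts pyrimidine synthesis, was at 3.56, 3.26 and 2.32 (adjusted p 0.808 and 0.802). Mthfd2, a mitochondrial folate enzyme, rose by 1.35 against unstimulated cells (adjusted p 0.0492). With IL4, none of the 25 passed in limma, 5 passed at an unadjusted p under 0.05, all higher, and the median difference was 0.64. Over all 13615 tested genes, 753 were higher and 895 lower at that unadjusted p.

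Of 21 tested genes of salvage and deoxynucleotide control, 1 fell and 3 rose against unstimulated cells, and 1 fell and 4 rose against IL4. Samhd1, a phosphohydrolase that degrades deoxynucleotide triphosphates, was at 10.90 and 10.46 in unstimulated cells, at 10.67, 10.49 and 10.41 with IL4, and at 12.96, 13.25 and 13.56 with LPS plus IFNg. The 3 LPS plus IFNg libraries were the highest of the 8. Samhd1 rose by 2.58 against unstimulated cells (SE 0.24, adjusted p 0.00179) and by 2.74 against IL4 (adjusted p 0.000469). Pnp, a purine nucleoside phosphorylase, rose by 2.73 and 3.47 (adjusted p 0.00132 and 0.000169). Upp1, a uridine phosphorylase, had no level above 0 in unstimulated cells and a mean of 6.73 with LPS plus IFNg (adjusted p 0.0159). Dtymk, which phosphorylates thymidylate, was at 8.39, 9.33 and 6.56 and fell against IL4 (adjusted p 0.00935, and 0.0917 against unstimulated cells). Rrm2b, the reductase subunit used outside S phase, was at 5.25, 5.93 and 6.70 and did not pass against unstimulated cells (1.45, adjusted p 0.306).

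Of 38 genes that control entry into S phase, 4 fell and 3 rose against unstimulated cells, and 5 fell and 4 rose against IL4. Cdkn1a, the p21 inhibitor of cyclin-dependent kinases that also binds Pcna, was at 11.03 ± 0.15 (SD, n = 2), 11.79 ± 0.74 (SD, n = 3) and 13.38 ± 0.24 (SD, n = 3) and rose by 2.34 and 1.59 (adjusted p 0.015 and 0.0306). Myc, a growth-promoting transcription factor, fell by 3.06 and 4.82 (adjusted p 0.0105 and 0.000754). Cdkn2c, an inhibitor of the G1 kinases, fell by 5.22 against unstimulated cells (adjusted p 0.036, and 0.0524 against IL4). Ccnd2, a G1 cyclin, rose by 2.44 and 2.93 (adjusted p 0.0279 and 0.00589), whereas Ccnd1, its relative, was at 12.23, 12.93 and 12.39 (adjusted p 0.848 against unstimulated cells). E2f1, an activator of S phase genes, was at 7.17, 7.56 and 6.95 (adjusted p 0.68). Of the repressive family members, E2f8 was at 6.19, 6.22 and 1.54 (adjusted p 0.129) and E2f7 was listed at 0 throughout the LPS plus IFNg group after a mean of 1.79 unstimulated (adjusted p 0.382). Ccne1, the cyclin that triggers S phase, was at 2.21, 3.87 and 5.79 (adjusted p 0.324). Ccna2, the S phase cyclin, was at 7.73 unstimulated and 7.10 with IL4 and was listed at 0 in every LPS plus IFNg library (adjusted p 0.000798 against unstimulated cells).

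Of 25 mitotic genes, 20 fell against unstimulated cells and 21 against IL4, with medians of -4.97 and -4.33, and none rose. Top2a, the topoisomerase that untangles sister chromosomes, was at 10.16, 9.41 and 4.46, and fell by 5.70 against unstimulated cells (adjusted p 0.000798). Cenpf, a kinetochore protein, was at 8.88, 7.77 and 0.97 (adjusted p 0.00399), and Ube2c and Plk1, a ubiquitin carrier and a kinase of mitosis, were listed at 0 in every LPS plus IFNg library (adjusted p 0.00184 and 0.00521). Mki67, a marker of dividing cells, was at 9.13, 8.60 and 5.34, and fell by 3.79 (adjusted p 0.0102). The difference in counts between the lists was not tested.

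Of 23 genes of replication stress response and repair, 3 fell against unstimulated cells and 9 against IL4, with medians of -1.06 and -0.95. Bard1, a partner in homologous recombination, was at 6.36 unstimulated and 6.36 with IL4 and was listed at 0 throughout the LPS plus IFNg group (adjusted p 0.00335 and 0.00129). Exo1, a nuclease of recombination and mismatch repair, was at 5.58, 5.87 and 0.21 (adjusted p 0.00628 and 0.00207). Brca2, which loads the recombinase, was at 4.90, 6.11 and 1.28 and passed against IL4 only (adjusted p 0.0406, and 0.19 against unstimulated cells). The medians of several lists against unstimulated cells depended on the scale: with the ribosomal protein genes set equal they became 0.78 for the other replication genes, 0.71 for de novo synthesis, 0.99 for S phase entry and 0.39 for repair, and with the housekeeping genes set equal 0.37 for salvage and 0.03 for S phase entry. The mitotic median kept its sign, at -4.48 and -3.52.

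**Figure D5:**
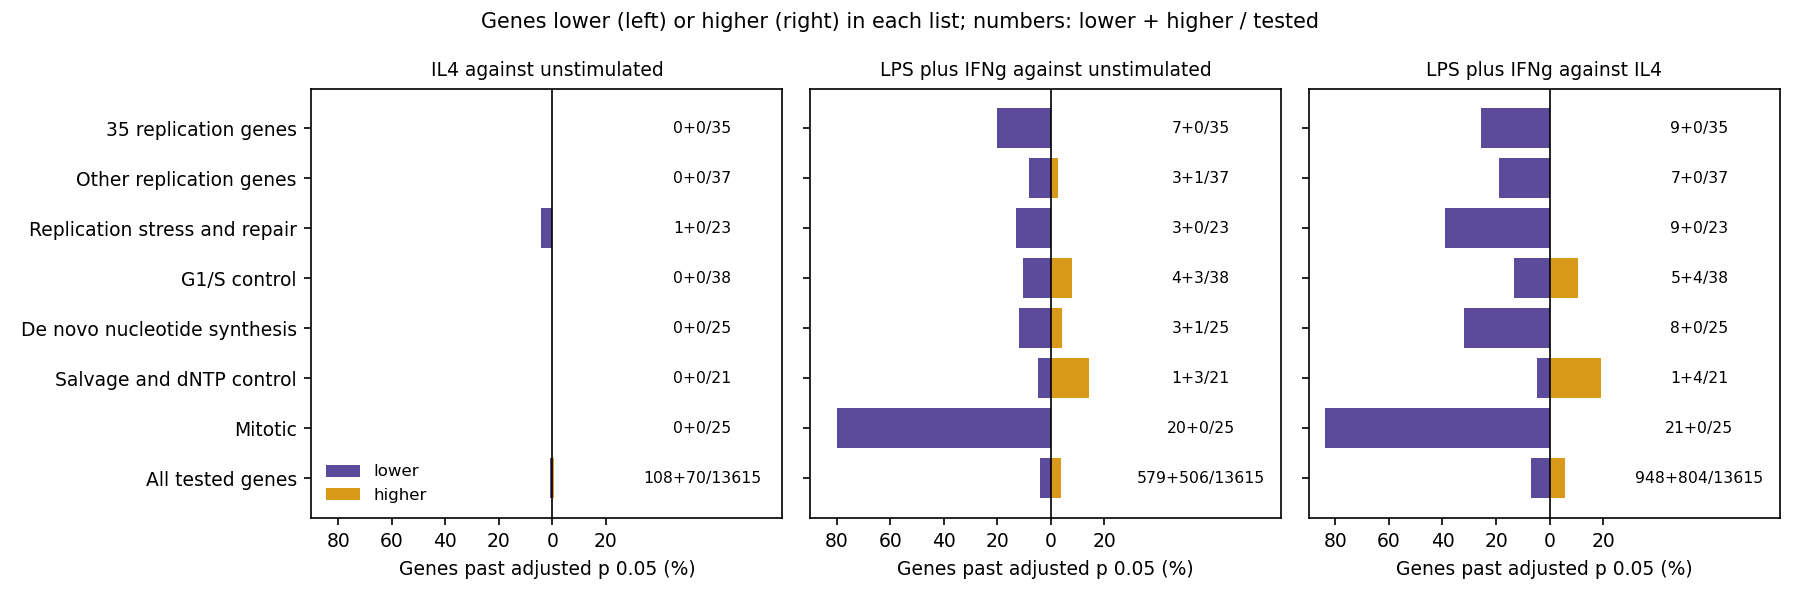
Percent of tested genes past an adjusted p of 0.05 (horizontal axis; lower to the left, higher to the right) in the 35 genes, in 6 other lists and in all tested genes, for each of the 3 comparisons; the printed figures are genes lower, genes higher and genes tested. With LPS plus IFNg the 35 genes have 7 and 9 lower and none higher, and the mitotic list 20 and 21 of 25 lower.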

How the data were processed

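Each library was 3' end RNA-seq: RNA was primed with barcoded oligo-dT and libraries were pooled after qPCR of Actb, per the labels' protocols. TopHat and the mm9 build are named per the submitters' processing notes; the sources used here do not give tool versions, the counting step, how reads that match several genes were treated or what an exact 0 means. The deposited table holds log2 values that the authors quantile-normalised. Depth is therefore unknown, and no interval from counts is given.

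Of 20259 rows, 1 had no symbol and 6643 were constant and were left out, which left 13615. Groups were compared in limma 3.58.1 (R 4.3.3) with 1 mean per group over all 8 libraries and an intensity trend. The p-values are two-sided and Benjamini-Hochberg adjusted over the 13615 genes. The fit was tested on simulated data. The members and the other gene lists were chosen with earlier results of these data known. Per-library values are given, in each role, for up to 4 called members with the largest differences and the member with the highest mean, and for any called in 1 comparison whose differences with the 2 stimuli have opposite signs. From each other list up to 3 called genes are named by size, plus Cad, Samhd1, Rrm2b, Cdkn1a, Ccnd1, Ccne1, E2f1, E2f7, E2f8, Orc1, Cdc45, Dnmt1, Mki67 and Top2a; 1 further gene of this rule is not reported here. Other genes were named after their values were seen. Alternatives were no trend, only the compared groups, a filter on low means, 1 added on the linear scale, values below 0 set to 0, 2 other scalings, stricter thresholds, array weights, a replicate block and leaving out each library.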

Additional observations from a re-analysis of the deposited data

How the results depend on the processing

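No member passed with IL4 against unstimulated cells under any alternative run. Against unstimulated cells, the 7 members lower with LPS plus IFNg became 1 at an adjusted p of 0.01, and 1 to 8 when each library was left out in turn. Against IL4, the 9 became 5 at an adjusted p of 0.01, 17 when the 0.25 of genes with the lowest means were left out (33 members tested), and 7 to 11 without each library. Apart from the replicate block, the other alternatives kept both counts within 1.5 times, and no difference called for a member reversed in direction. The causes were not tested.

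Whether equal replicate numbers pair the libraries is not stated. Deviations of same-numbered libraries from their group means correlated at -0.0791 to 0.0718 over genes with a mean of at least 5. With 2 unstimulated libraries the deviations are mirror images of each other, so this check is weak and cannot exclude pairing. With the replicate block, 2 members were lower against unstimulated cells (Lig1 and Uhrf1) and 8 against IL4.

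Over all genes, the 178, 1085 and 1752 calls (IL4 against unstimulated cells, then LPS plus IFNg against unstimulated cells and against IL4) became 10, 438 and 806 at an adjusted p of 0.01. The replicate block gave 8 and 511 for the comparisons with unstimulated cells, the compared groups alone gave 7 for IL4, and ribosomal protein scaling gave 5455 and 6897 for LPS plus IFNg. Leaving out a library gave 81 to 279, 650 to 1154 and 1238 to 1578. Low values limit the sizes: 17 members were listed at 0 in at least 1 LPS plus IFNg library, and without depth a 0 gives no upper bound.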
